A study of Mus musculus with 5 samples.

Results

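The genes described here are 42 mouse genes of the DNA damage response and of DNA repair, taken by symbol from an expression table of 17739 genes, in which all 42 were found. They fall into 9 roles: 8 genes of the Fanconi anaemia core complex, the 2 genes of the complex that it modifies, 8 genes of homologous recombination, 5 of break sensing and end resection, 6 checkpoint kinases and mediators, 5 of non-homologous end joining, 4 of single-strand break repair, 2 RecQ helicases and 2 mismatch repair genes. RNA came from medulloblastoma cells of Math1-Cre;Gli2A mice, bred from Math1-Cre and R26;Gli2A parents and given doxycycline (DOX) in the diet from embryonic day 0. In all of them the labels give GLI2, which turns on the target genes of Sonic hedgehog signalling, as active. Math1 (Atoh1) is expressed in granule neuron progenitors of the cerebellum, so Cre is driven in that lineage, and every tumour carried the same alleles and the same treatment. Tumour-bearing cerebella were dissociated with papain and RNA was taken directly afterwards. The labels hold 1 group of 5 libraries, numbered 1, 5, 8, 14 and 15, and give no age for the mice, so no comparison between conditions was possible. They do not say that each number is a separate mouse, so every SD and p-value covers only the spread among these libraries, which may be partly technical.

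Cells answer DNA breaks and stalled replication forks in stages. The MRE11, RAD50 and NBN proteins sense broken ends and activate the kinase ATM, while single-stranded DNA activates ATR through TOPBP1, and both kinases act through CHEK2 and CHEK1. Broken ends are then either joined directly by the end-joining machinery or resected and copied from the sister chromatid by homologous recombination, a route open mainly in S and G2 phase. Crosslinks between the DNA strands are handled by the Fanconi anaemia proteins together with BRCA1 and BRCA2. In the developing cerebellum, granule neuron progenitors divide rapidly under Sonic hedgehog, and in mice the loss of several of these genes is known to give progenitor death or, without p53, medulloblastoma.

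The promoters of the members were read from the RefSeq table of mouse build GRCm38.p6, each from 250 bases before to 50 bases after a transcript start. A promoter was listed for 34 of the 42 members, 37 promoters in all. E2F factors drive many genes of S phase, and their binding letters were searched as TTTCGCGC, TTTGGCGC, TTTCCCGC or TTTGCCGC on both strands. These letters stood in 8 of 37 member promoters (21.6%), against 2.26% of 32851 promoters of all genes and 3.79% of 13923 promoters of genes with a mean log2 value of at least 5. The 8 promoters belong to 7 genes: Brca2, Chek2, Fancg, Msh6, Rad51c, Topbp1 and Xrcc6. The first 4 sequences that follow show this match in capitals in genes of the checkpoint (Topbp1 and Chek2), of mismatch repair (Msh6) and of the Fanconi anaemia core complex (Fancg). The fifth, of Parp1, is shown beside them as a promoter without these letters. All are written along the gene's own strand.
Topbp1: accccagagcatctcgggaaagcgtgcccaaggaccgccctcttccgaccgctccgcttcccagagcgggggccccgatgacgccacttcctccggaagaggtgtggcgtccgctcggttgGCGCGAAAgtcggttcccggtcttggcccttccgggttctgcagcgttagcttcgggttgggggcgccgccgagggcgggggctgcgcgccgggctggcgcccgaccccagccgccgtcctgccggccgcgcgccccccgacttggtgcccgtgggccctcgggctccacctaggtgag
Chek2: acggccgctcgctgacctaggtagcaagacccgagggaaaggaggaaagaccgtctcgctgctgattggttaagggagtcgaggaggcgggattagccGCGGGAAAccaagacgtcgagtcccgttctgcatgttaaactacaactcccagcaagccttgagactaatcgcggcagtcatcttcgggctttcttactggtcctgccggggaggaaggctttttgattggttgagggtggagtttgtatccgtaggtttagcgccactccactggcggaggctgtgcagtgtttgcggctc
Msh6: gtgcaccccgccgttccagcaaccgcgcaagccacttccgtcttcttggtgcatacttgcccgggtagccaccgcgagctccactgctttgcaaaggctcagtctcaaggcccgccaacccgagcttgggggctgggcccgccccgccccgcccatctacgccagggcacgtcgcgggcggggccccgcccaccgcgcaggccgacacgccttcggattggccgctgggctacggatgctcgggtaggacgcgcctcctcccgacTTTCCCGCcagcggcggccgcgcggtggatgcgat
Fancg: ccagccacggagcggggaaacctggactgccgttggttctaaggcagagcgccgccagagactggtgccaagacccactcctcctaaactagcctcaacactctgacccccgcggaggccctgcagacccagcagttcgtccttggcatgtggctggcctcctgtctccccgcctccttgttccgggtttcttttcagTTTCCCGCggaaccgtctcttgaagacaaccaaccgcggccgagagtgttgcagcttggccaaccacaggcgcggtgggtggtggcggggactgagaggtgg
Parp1: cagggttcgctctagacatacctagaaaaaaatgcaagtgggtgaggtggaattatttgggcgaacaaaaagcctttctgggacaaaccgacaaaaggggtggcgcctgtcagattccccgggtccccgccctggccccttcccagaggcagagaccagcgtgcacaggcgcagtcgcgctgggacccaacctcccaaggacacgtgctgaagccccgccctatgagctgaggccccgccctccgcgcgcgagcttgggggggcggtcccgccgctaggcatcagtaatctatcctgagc
The Topbp1 promoter is chr9:103305077-103305376 on the plus strand, with the match starting 129 bases before the start of transcription. The Chek2 promoter is chr5:110839733-110840032 on the plus strand, with the match 152 bases before the start. The Msh6 promoter is chr17:87974800-87975099 on the plus strand, with the match 15 bases after the start. The Fancg promoter is chr4:43010252-43010551 on the minus strand, with the match 52 bases before the start. The Parp1 promoter is chr1:180568641-180568940 on the plus strand. The CCAAT box, bound by NF-Y, stood in 21 of 37 member promoters (56.8%), against 37.4% of all promoters and 37.2% of those of genes with a mean of at least 5. The CHR element of genes expressed late in the cell cycle, searched as TTTGAA or TTCGAA on both strands, stood in 1 of 37 member promoters (2.7%), that of Atr, against 19.2% of all promoters and 13.4% of those of genes with a mean of at least 5. The median GC content was 60.0% in member promoters, 52.7% in all promoters and 61.0% in those of genes averaging at least 5. The part of base composition in these shares was not tested. A match of letters is a description of the window and not a binding site.

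All 42 members were measured above the low end of the table. Values are the authors' log2 values, read here as regularised-log values. They are corrected for library size and not for gene length, and the 5 values of a gene are given in the order tumour 1, 5, 8, 14 and 15. The median over the 42 members was 9.29, 9.15, 9.29, 9.39 and 9.24, a mean of 9.27 ± 0.09 (SD, n = 5), and 37 of 42 members had a mean above 8. To set genes side by side, log2 of the exon length in kb was subtracted (union of all annotated exons). On that per-kb scale the members' median was 6.66, against 7.17 over the genes whose mean was at least 5, and 29 of 42 members lay below the median gene. Repair genes were thus present at ordinary to modest levels in these tumours, with a few exceptions. Parp1, which detects strand breaks and builds poly(ADP-ribose) chains, was the highest member per kb at 9.53 ± 0.11, the 90.3rd percentile of genes, and at 9.98 also the highest with the length of the longest transcript. Msh6, which recognises base mismatches, stood at 8.58 ± 0.08 (77.8th percentile). Xrcc5, which encodes Ku80 and caps broken ends, stood at 8.43 ± 0.10 (75.3rd percentile), and the ATR activator Topbp1 at 8.24 ± 0.13 (71.7th percentile). Lowest per kb were Palb2, which links BRCA1 to BRCA2, at 4.88 ± 0.10 (14.5th percentile), and Fancl, the ubiquitin ligase of the Fanconi anaemia core, at 5.01 ± 0.13 (15.7th percentile). The order below Parp1 rests on the exon length used: with the longest transcript Topbp1 was at 9.35 and Xrcc1 at 9.07, both above Msh6 at 8.61, and Palb2 at 5.85 lay above Fancl at 5.32.

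The members differed little between tumours. No member spanned more than 1.5-fold between its highest and lowest tumour, against 14.7% of the 13691 genes averaging at least 5, and no member spanned more than 2-fold, against 3.79% of those genes. Without tumour 5 the shares of all genes were 8.86% and 1.81%, and without tumour 15 the share over 2-fold was 2.32%; the members' counts were 0 in both cases. The median SD of a gene over the 5 tumours was 0.11 for the members and 0.11 for all genes, so a typical member varied as much as a typical gene, and what the members lacked was the wide end of the spread. Similar genes, described below, mostly lacked it too. More than 1.5-fold was spanned by 0 of 32 replication genes, 0 of 25 mitosis genes and 1 of 89 other repair genes. The regularised log draws the values of weakly expressed genes together, and 37 of 42 members lie above a mean of 8. The part of this transformation in the members' spans was not tested. Exo1, the exonuclease that extends resection, had the widest range, at 9.34, 9.16, 9.65, 9.62 and 9.40, a 1.41-fold span with the low value in tumour 5 and the high value in tumour 8. Parp2, which acts beside Parp1, had the narrowest range, at 9.70, 9.73, 9.67, 9.70 and 9.75, a 1.06-fold span.

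**Figure D1:**
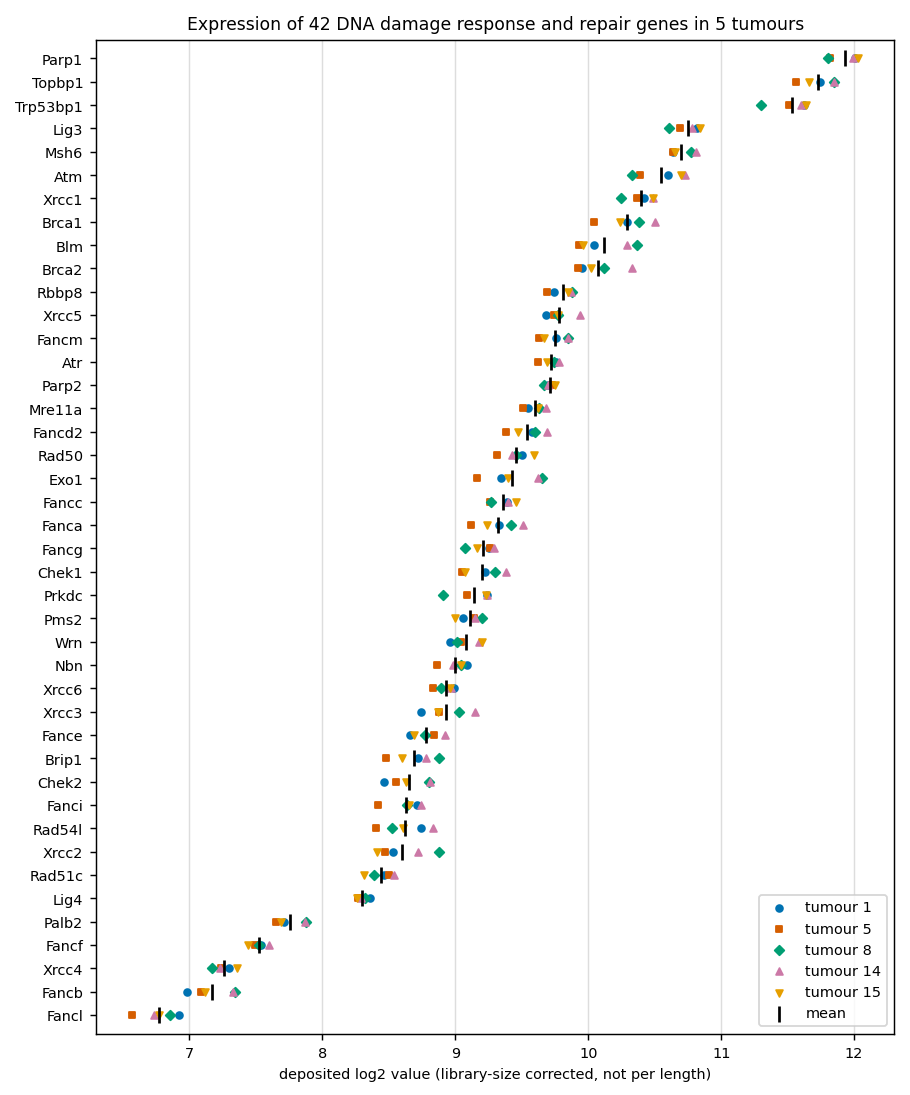
Deposited log2 value of each of the 42 members in the 5 tumours (horizontal axis; corrected for library size and not for length, so distances between rows are not differences in level between genes), with rows in order of the mean, 1 symbol per tumour and a vertical bar at the mean. Within a row the symbols lie close together: the widest row, Exo1, spans 1.41-fold and the narrowest, Parp2, 1.06-fold.

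Small as the differences were, they ran in 1 direction for many members. Tumour 14 held the highest value of 20 of 42 members, against 15.8% of all genes, and tumour 8 that of 10, against 18.5%. Tumour 15 held the highest value of 8 members (21.4% of all genes), tumour 1 of 4 (20.2%) and tumour 5 of none (24.1%). At the low end, tumour 5 held the lowest value of 21 of 42 members, against 24.6% of all genes. Tumour 8 held the lowest value of 9 members (22.6% of all genes), tumour 1 of 7 (16.9%), tumour 15 of 5 (22.9%) and tumour 14 of none (13.0%). Tumour 5 was thus the low tumour and tumour 14 the high tumour for this set of genes, although many of these gaps were small: 13 members were lowest in tumour 5, and 10 highest in tumour 14, by at least 0.05 from the next tumour. The share of all genes with such a gap was not counted, so the shares above cannot be set against these counts. In tumour 5, 37 of 42 members lay below the median of the other 4 tumours, against 51.9% of all genes, and in tumour 14, 36 of 42 lay above it, against 50.2%. Tumour 8 was mixed, with 15 of 42 members below the median of the others, against 49.1% of all genes. The median deviation of the members from the other tumours was 0.01, -0.14, 0.03, 0.12 and -0.05, beside 0.01, -0.01, 0.00, 0.00 and -0.01 over all genes. These are descriptions of 5 samples, with no test, because the labels give the tumours no groups. Without tumour 14 the count highest in tumour 8 was 20 in place of 10, without tumour 8 the count highest in tumour 14 was 30 in place of 20, and without tumour 5 the count lowest in tumour 15 was 15 in place of 5.

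**Figure D2:**
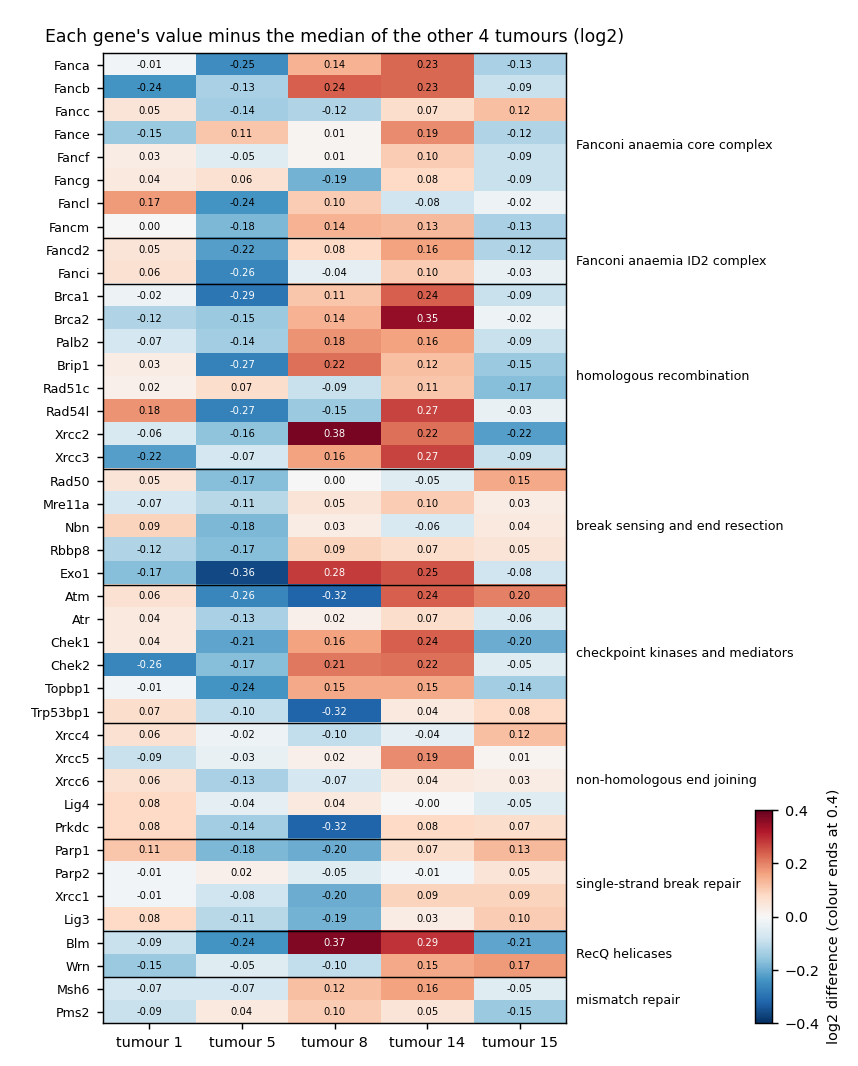
Deviation of each member (rows, by role) in each tumour (columns) from the median of the other 4 tumours, in log2 units, with the value printed in each cell. Most rows are negative in tumour 5 (37 of 42) and positive in tumour 14 (36 of 42), while the single-strand break repair genes are all negative in tumour 8.

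Of the members, 16 were lowest in tumour 5 and highest in tumour 8 or 14, against 10.7% of all genes. Of these 16 genes, 5 belong to homologous recombination, 3 to break sensing and end resection, 3 to the checkpoint, 2 to the Fanconi anaemia core complex, 2 to the complex it modifies and 1 to the RecQ helicases. The other 3 homologous recombination genes were lowest in tumour 1 or 15. Brca1, which directs broken ends into recombination (chr11:101488764-101551955), measured 10.29, 10.04, 10.38, 10.50 and 10.24, a mean of 10.29 ± 0.17 (SD, n = 5). Tumour 5 was low and tumour 14 high, 1.38-fold apart. Brca2, which directs strand exchange in recombination (chr5:150522630-150570329), measured 9.95, 9.92, 10.12, 10.33 and 10.02, again low in tumour 5 and high in tumour 14 by 1.33-fold. Its partner Palb2 measured 7.71, 7.65, 7.88, 7.87 and 7.69, with tumours 8 and 14 above the other 3. The helicase Brip1 measured 8.72, 8.48, 8.88, 8.78 and 8.60, low in tumour 5 and high in tumour 8 by 1.32-fold. Rad54l, a motor protein that helps the broken strand invade the sister chromatid, measured 8.74, 8.40, 8.52, 8.83 and 8.61, with tumours 5 and 8 both low and a 1.35-fold span. Xrcc2, which acts in the same strand exchange, measured 8.53, 8.47, 8.88, 8.72 and 8.41, with tumours 8 and 14 high and a 1.39-fold span. Xrcc3, which also acts there, measured 8.74, 8.88, 9.03, 9.15 and 8.87, with its low value in tumour 1 and a 1.33-fold span. In the eighth gene, Rad51c, the tumours lay within 1.17-fold of each other. Over the 8 genes the median deviation was -0.04, -0.15, 0.15, 0.23 and -0.09, and all 8 lay above the other tumours' median in tumour 14 (50.2% of all genes).

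The Fanconi anaemia genes repeated this order less evenly. Fancd2 and Fanci encode the pair of proteins that the core complex marks with ubiquitin at a crosslink. Fancd2 measured 9.58, 9.38, 9.60, 9.69 and 9.47, and Fanci measured 8.71, 8.42, 8.64, 8.74 and 8.65, both lowest in tumour 5 and highest in tumour 14. Within the core complex, 4 of 8 genes were highest in tumour 14 (15.8% of all genes) and 4 of 8 lowest in tumour 5 (24.6%). Fanca, a scaffold of the core, measured 9.33, 9.12, 9.42, 9.51 and 9.24. Fancl measured 6.92, 6.57, 6.85, 6.73 and 6.77, with its high value in tumour 1 and its low value in tumour 5. Fancb, on chromosome X, measured 6.98, 7.09, 7.34, 7.33 and 7.12, with its low value in tumour 1. The remaining core genes, Fancc, Fance, Fancf, Fancg and Fancm, the last a translocase that finds stalled forks, spanned 1.12-fold to 1.2-fold.

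Break sensing and resection genes were all lowest in tumour 5 (5 of 5), against 24.6% of all genes. Rad50, the coiled-coil subunit that tethers ends, measured 9.50, 9.31, 9.46, 9.43 and 9.59. The nuclease Mre11a measured 9.55, 9.51, 9.63, 9.68 and 9.62. Nbn, which brings ATM to the complex, measured 9.09, 8.86, 9.04, 8.98 and 9.04. The high tumour differed between these 3 subunits, being tumour 15 for Rad50, tumour 14 for Mre11a and tumour 1 for Nbn, and their spans ran between 1.13-fold and 1.22-fold. Rbbp8 (CtIP), which starts resection, had a mean of 9.81 ± 0.08 and a 1.14-fold span.

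All 6 checkpoint genes lay below the other tumours' median in tumour 5 (51.9% of all genes) and above it in tumour 14 (50.2%). Atm, the kinase of double-strand breaks (chr9:53439149-53536740), measured 10.60, 10.39, 10.33, 10.73 and 10.70, with tumours 5 and 8 below the other 3 and a 1.32-fold span. Atr, the kinase of stalled forks, measured 9.76, 9.62, 9.74, 9.78 and 9.69. Its target Chek1 measured 9.22, 9.05, 9.30, 9.38 and 9.07, with tumours 5 and 15 low. Chek2, the target of ATM, measured 8.46, 8.55, 8.80, 8.81 and 8.63, with tumours 8 and 14 high. Topbp1 measured 11.74, 11.56, 11.85, 11.85 and 11.66, low in tumour 5. Trp53bp1, which shields ends from resection, measured 11.62, 11.51, 11.30, 11.60 and 11.64, and was lowest in tumour 8.

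Of the 42 members, 9 were lowest in tumour 8 (21.4%), a share near the 22.6% of all genes. All 9 were highest in tumour 14 or 15, a combination held by 9.59% of all genes. They included the 4 genes of single-strand break repair. Parp1 (chr1:180568924-180601254) measured 12.01, 11.82, 11.80, 11.99 and 12.03, with tumours 5 and 8 below the other 3. The scaffold Xrcc1 measured 10.42, 10.37, 10.25, 10.49 and 10.49. Lig3, the ligase bound to XRCC1, measured 10.82, 10.69, 10.61, 10.78 and 10.84. In Parp2 the gap between tumour 8 and the next tumour was within 0.05, as it was in Parp1, so the order of the low tumours is close in these 2 genes. The median deviation of the 4 genes was 0.04, -0.10, -0.20, 0.05 and 0.09. Atm, Trp53bp1 and Prkdc, the first and last of them kinases of the same family, were also lowest in tumour 8, as were Fancg and Xrcc4.

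End-joining genes varied least between tumours of the 9 roles by their median SD, which was 0.07, and no tumour held the lowest value of more than 2 of the 5 genes. Xrcc5 measured 9.68, 9.74, 9.77, 9.94 and 9.77. Its partner Xrcc6, which encodes Ku70, measured 8.99, 8.83, 8.89, 8.97 and 8.96. The 2 Ku genes thus had different high tumours, tumour 14 for Xrcc5 and tumour 1 for Xrcc6. Prkdc, the catalytic kinase that Ku recruits (chr16:15637866-15842235), measured 9.24, 9.09, 8.91, 9.24 and 9.23, with tumours 5 and 8 low. Xrcc4, the scaffold of the final ligation, measured 7.30, 7.24, 7.17, 7.23 and 7.36. Its ligase Lig4 measured 8.36, 8.27, 8.32, 8.29 and 8.26, a 1.07-fold span.

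Of the RecQ helicases, Blm, which dissolves recombination intermediates, measured 10.04, 9.93, 10.37, 10.29 and 9.96, a 1.36-fold span with tumours 8 and 14 above the other 3. Wrn measured 8.96, 9.04, 9.01, 9.18 and 9.20, with tumours 14 and 15 above the others. The mismatch repair gene Msh6 measured 10.64, 10.64, 10.77, 10.81 and 10.65, and Pms2, the endonuclease subunit that follows it, measured 9.06, 9.14, 9.20, 9.15 and 9.0. Both were higher in tumours 8 and 14 than in the other 3, by small margins.

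Of the 42 members, 11 are commonly listed as transcribed with S phase: Brca1, Brca2, Brip1, Fanca, Fancd2, Fanci, Rad54l, Exo1, Blm, Chek1 and Msh6. Of these 11 genes, 10 were lowest in tumour 5 and 8 were highest in tumour 14, and all 11 lay below the other tumours' median in tumour 5 and above it in tumour 14. Their median deviation was -0.01, -0.25, 0.14, 0.24 and -0.09. The other 31 members had a median deviation of 0.02, -0.13, 0.01, 0.08 and 0.01, with 11 of 31 lowest in tumour 5 and 12 of 31 highest in tumour 14. Over all genes, 24.6% were lowest in tumour 5 and 15.8% highest in tumour 14. Of all genes, 51.9% lay below the other tumours' median in tumour 5, and 50.2% above it in tumour 14. The difference between the 11 and the 31 was not tested, since both were chosen with earlier results known. The E2F letters stood in 2 of the 10 promoters found for the 11 genes.

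Many genes of DNA replication and mitosis that are not members were also lowest in tumour 5 (24.6% of all genes) and highest in tumour 14 (15.8%). Of 32 replication genes, 18 were lowest in tumour 5 and 19 highest in tumour 14, with a median deviation of 0.01, -0.16, 0.13, 0.17 and -0.13. They were low in tumour 15 as well, where 11 of 32 were lowest (22.9% of all genes). In that tumour 29 lay below the other tumours' median, against 7176 of 13691 genes averaging at least 5. Of 25 mitosis genes, 21 were lowest in tumour 5 and 15 highest in tumour 14, with a median deviation of -0.14, -0.20, 0.19, 0.21 and -0.03. In tumour 1, 22 of 25 mitosis genes lay below the other tumours' median, against 20 of 42 members and 6575 of 13691 genes averaging at least 5. The members' median deviation in tumour 1 was 0.01. Many markers of other cells were highest in tumour 5, which held the highest value of 24.1% of all genes. All 9 oligodendrocyte markers, 8 of 10 microglia and macrophage markers, 6 of 8 endothelial markers, 5 of 8 astrocyte and Bergmann glia markers and 4 of 6 granule neuron markers were highest there. The summed level of the oligodendrocyte markers ran from 14.53 to 15.91 over the 5 tumours (log2), that of the microglia and macrophage markers from 12.85 to 13.68, and that of the endothelial markers from 12.19 to 12.88. The summed astrocyte and Bergmann glia markers ran from 15.17 to 15.57, and the granule neuron markers from 15.32 to 15.68. Each of these 5 sums had its high value in tumour 5. Median deviations in tumour 5 were 0.84, 0.64, 0.57, 0.22 and 0.85 in the order of these 5 lists. In tumour 14 these medians were -0.10, -0.07, -0.24, -0.12 and 0.14, beside 0.17 and 0.21 for the replication and mitosis genes. The oligodendrocyte markers deviated by 0.49 in tumour 8, where the replication and mitosis genes were also high. In tumour 1 the oligodendrocyte markers deviated by -0.77, where the replication genes were at 0.01 and the mitosis genes at -0.14. The part of other cells or of cell division in the members' values was not tested, and in bulk RNA fewer cells of a type and less RNA per cell cannot be told apart. All 8 granule neuron progenitor markers were measured, with means between 8.62 and 15.08 and Zic1 the highest. Means of the 6 granule neuron markers ran from 6.74 (Gabra6 and Gabrd) to 14.27 (Cntn2). Detection in bulk RNA without another tissue does not by itself show the tumour type. Of these 8 progenitor markers, 3 were lowest in tumour 5: Ptch1 (1.75-fold span), Gli1 (1.52-fold) and Mycn (1.2-fold). Pax6 was highest there, and 4 of 8 lay below the other tumours' median in tumour 5 and 4 above it. The list's median deviation in that tumour was -0.06. Atoh1 spanned 2.81-fold with its low value in tumour 1. Of 6 T cell markers, 2 were in the table, with means of 0.49 and 6.20.

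**Figure D3:**
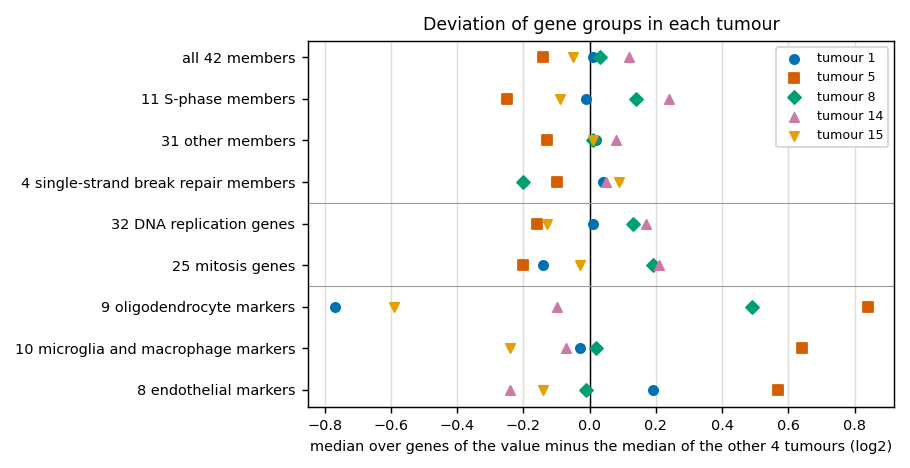
Median over the genes of each list (rows) of the deviation from the other 4 tumours (log2, horizontal axis), with 1 symbol per tumour; horizontal lines part the members from the replication and mitosis lists and from the cell markers. The members lie at -0.14 in tumour 5 and 0.12 in tumour 14, the replication list at -0.16 and 0.17, and the oligodendrocyte, microglia and endothelial markers at 0.84, 0.64 and 0.57 in tumour 5.

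Partner genes were compared within each tumour on the per-kb scale, by exact permutation of the signs (a two-sided sign-flip test) over the 5 tumours and Benjamini-Hochberg adjustment over 13 pairs. The smallest p this exact test can give is 0.063, so no pair could pass 0.05. In 10 of the 13 pairs the difference had the same sign in 5 of 5 tumours (exact sign-flip p = 0.063, adjusted p = 0.0813). A difference between genes rests on the exon length used, so the value with the longest transcript is given beside it where it moves the fold by more than 1.5 times or turns the sign. Among the Ku partners, Xrcc5 minus Xrcc6 was 1.5, 1.72, 1.69, 1.78 and 1.62, a mean of 1.66 ± 0.11 or 3.16-fold. Prkdc minus Xrcc6 was -1.31, -1.30, -1.54, -1.29 and -1.29, with tumour 8 apart from the other 4, and Prkdc had the higher value where length was left out (0.21). Xrcc4 minus Lig4 was -0.74 ± 0.09 (SD, n = 5), with Xrcc4 lower in all 5 tumours. The RNA of these end-joining partners thus stood at unequal levels per kb, with Xrcc5 above Xrcc6 and Xrcc6 above Prkdc.

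Some partners lay close together. Rad50 minus Mre11a averaged 0.00 ± 0.10 (exact sign-flip p = 0.9375), and the sign varied between tumours. Xrcc1 minus Lig3 averaged -0.02 ± 0.04 (exact sign-flip p = 0.25, adjusted p = 0.295), but 0.89 with the longest transcript. Chek1 minus Chek2 averaged -0.07 ± 0.13 (exact sign-flip p = 0.3125, adjusted p = 0.339) and was above 0 in tumour 1 only, but it averaged 0.56 where length was left out. A p that misses the threshold does not show that the levels of these partners were equal. Fancd2 minus Fanci was 0.41, 0.50, 0.50, 0.49 and 0.36, a mean of 0.45 ± 0.06. Rad50 minus Nbn averaged -0.63 ± 0.05, the same sign in 5 of 5 tumours, but 0.46 where length was left out. Among the kinases, Atm minus Atr averaged 2.03 ± 0.16, or 4.07-fold, but 0.56 with the longest transcript, since the annotated exons of Atr cover 23.6 kb and its longest transcript 8.10 kb. Brca2 minus Palb2 averaged 1.42 ± 0.09, and 0.79 with the longest transcript. Brca1 minus Bard1, the partner of BRCA1 in its ubiquitin ligase, averaged 0.81 ± 0.19, with Bard1 at 8.77, 8.88, 9.14, 8.99 and 8.67 on the deposited scale. Parp1 minus Parp2 averaged 1.68 ± 0.10, or 3.20-fold, and Blm minus Wrn averaged 0.83 ± 0.23 and 1.43 with the longest transcript.

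**Figure D4:**
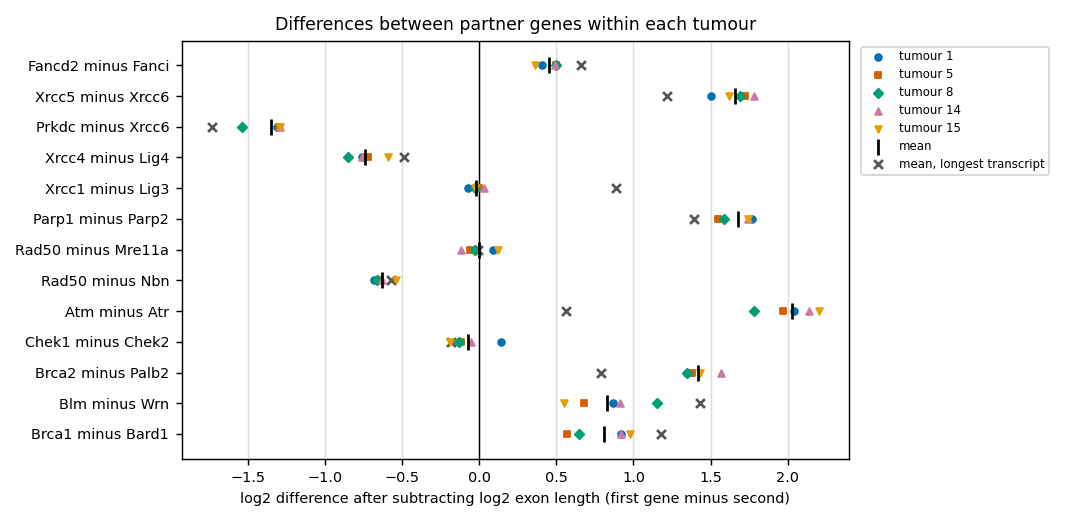
Difference between partner genes within each tumour (log2 after subtracting log2 exon length, first gene minus second, horizontal axis) for 13 pairs, with 1 symbol per tumour, a vertical bar at the mean and a cross at the mean with the longest transcript. Atm minus Atr (2.03) lies farthest to the right and moves to 0.56 with the longest transcript, and Prkdc minus Xrcc6 has tumour 8 apart at -1.54.

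Of 91 further repair genes listed that are not members, 89 were measured. Of these, 27 of 89 were lowest in tumour 5 (24.6% of all genes) and 24 of 89 highest in tumour 14 (15.8% of all genes), and the difference from the members was not tested. They had a median deviation of 0.00, -0.03, 0.00, 0.06 and -0.02, and 1 of 89 spanned more than 1.5-fold. That gene, Rmi2, a subunit of the complex around BLM, measured 7.58, 7.17, 6.96, 7.44 and 7.31, a 1.54-fold span with the low value in tumour 8. Among the other checkpoint and chromatin genes, 8 of 13 were lowest in tumour 5, with a median deviation there of -0.16. Among the other homologous recombination genes, 6 of 16 were lowest in tumour 5, with a median deviation of -0.09. Base excision repair had 9 of 17 genes highest in tumour 14, with a median deviation there of 0.12. Nucleotide excision repair, which removes bulky lesions outside replication as well, varied little, with 15 genes at a median SD of 0.07 and median deviations between -0.02 and 0.02. The other Fanconi anaemia genes (9), other end-joining genes (7), other mismatch repair genes (5) and translesion polymerases (7) had median deviations in tumour 5 of -0.05, -0.03, -0.04 and -0.03.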

How the data were processed

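The 5 libraries came from tumour cells of 1 group and were strand-specific mRNA, per the labels' protocols. Each library is called a tumour here. The values are the authors' deposited log2 values, 1 column per library, taken to be regularised-log output of DESeq2 because of the table's short name in the labels. The submitters' processing notes name STAR 2.4.1, featureCounts of Subread 1.4.6, DESeq2, and 2 names of 1 mouse build, GRCm38 and mm10. No source used here gives the annotation, the strand setting or the gene filter. Of 7 columns, 2 match no sample and were not used. No counts were used, so depth is unknown and intervals for counting error could not be formed. Column medians lay between 8.51 and 8.58.

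Members and lists were chosen with earlier results of these data known. For each gene the mean, SD, range and deviation from the median of the other 4 tumours were computed with Python 3.11.15, pandas 2.3.3, numpy 2.4.6 and scipy 1.17.1, beside the same over 13691 genes with a mean of at least 5. Exon lengths and gene coordinates came from GENCODE M21 (GRCm38), and promoters from RefSeq (GRCm38.p6). Pairs were tested with an exact sign-flip permutation test over 32 sign patterns; 2 further pairs are not reported here. The calculations were tested on simulated data with shifts far larger than the members' differences, so that test does not cover differences of the size reported here. The naming rule gave values in each tumour for genes of the pairs, the 8 members of widest range, the 3 of highest and 3 of lowest mean, and genes with a tumour apart. Further members were added after their values were seen. Alternatives were no length subtraction, the longest transcript, median centring, other filters, each tumour left out, deviation from the mean of the others, and a shorter promoter window. Counting that ignored strand would mix overlapping genes: exons of 20 of 42 members overlap a gene on the opposite strand, 8 of them (Fanca, Fancc, Fancf, Fancl, Fanci, Rad54l, Trp53bp1 and Lig3) over more than 10% of their exon length.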

Additional observations from a re-analysis of the deposited data

Results flagged for a closer look

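Prkdc minus Xrcc6 was -1.54 in tumour 8, against -1.31, -1.30, -1.29 and -1.29 in tumours 1, 5, 14 and 15, so tumour 8 stood apart by more than 0.71 of the whole range, the critical value of Dixon's test for 5 values. Prkdc was at 8.91 in tumour 8 and between 9.09 and 9.24 in the other 4, while Xrcc6 was at 8.89 in tumour 8 and between 8.83 and 8.99 in the other 4. It was the only set flagged among 66 sets of 5 values checked (the 42 members, the 13 pairs and the list medians), and chance flags about 1 in 20 sets.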

How the results depend on the processing

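Requiring a gap of at least 0.05 to the next tumour, an alternative chosen after seeing the data, left 13 members lowest in tumour 5, 10 highest in tumour 14, 3 highest in tumour 8, 3 highest and 3 lowest in tumour 15 and 1 highest in tumour 1. The same gap was not counted over all genes. Median centring of the tumours gave 6 members highest in tumour 8 in place of 10. Leaving out each tumour in turn gave 4 to 9 members highest and 7 to 11 lowest in tumour 1, 0 to 3 highest in tumour 5, 10 to 20 highest in tumour 8, 0 to 3 lowest in tumour 14 and 5 to 15 lowest in tumour 15. The share of all genes over 1.5-fold was then 8.86% to 13.7%, and over 2-fold 1.81% to 3.66%. Rad50 minus Mre11a ran from -0.03 to 0.03. Without length subtraction the members' median lay 0.15 below that of all genes (-0.15, against -0.52 per kb), and Prkdc minus Xrcc6 was 0.21, Rad50 minus Nbn 0.46, Chek1 minus Chek2 0.56 and Rad50 minus Mre11a -0.14. With the longest transcript Xrcc1 minus Lig3 was 0.89. In promoters cut to 100 bases before the start, the E2F letters stood in 13.5% of member and 1.27% of all promoters, the CHR letters in 0.0% and 8.59%, and the CCAAT box in 40.5% and 23.4%. The causes of these shifts were not tested. No paired analysis was possible because the labels hold 1 group. With depth unknown, small differences between tumours cannot be set against counting error.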

Other observations

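Genes of the p53 response, which acts after DNA damage, did not share the order of the repair genes. Of 15 such genes, 7 were lowest in tumour 15 (22.9% of all genes) and 5 in tumour 14 (13.0%). The highest value lay in tumour 1 for 5 genes (20.2% of all genes), in tumour 5 for 5 (24.1%) and in tumour 8 for 4 (18.5%). Their median deviation from the other tumours was 0.08, 0.03, 0.09, -0.12 and -0.10 in tumours 1, 5, 8, 14 and 15, beside 0.01, -0.14, 0.03, 0.12 and -0.05 for the 42 repair genes. Of the 15 genes, 4 spanned more than 1.5-fold, against 14.7% of all genes. Cdkn1a, the cell cycle inhibitor p21, had the highest mean of the list, 11.34 ± 0.26 (SD, n = 5). The difference between the lists was not tested.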
